A study of Mus musculus with 3 samples.

Results

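The genes described here build the podosome and the actin cytoskeleton of mouse pre-osteoclasts. They were chosen by symbol, as the rows of the deposited gene table that carry 1 of 40 listed names, and all 40 were found among 24067 genes. By role they comprised 9 genes of the adhesion plaque, 3 kinases with the adaptor Cbl, 5 genes that start actin branching in the podosome core, 7 subunits of the Arp2/3 complex, 2 actins, 4 crosslinkers, 4 genes of actin turnover and 5 genes of tropomyosin and myosin.

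Podosomes are dot-like contacts by which osteoclasts and their precursors hold on to bone and to culture plastic. Each has a core of branched actin, made by the Arp2/3 complex under the control of the Wiskott-Aldrich syndrome protein, and a surrounding ring of plaque proteins such as talin, vinculin and paxillin that tie actin to integrins. The tyrosine kinase Src acts in podosome assembly and turnover, and in mature osteoclasts podosomes merge into the sealing zone, the actin ring that encloses the resorbed bone surface. Contacts of this kind bear mechanical load, which gives the genes a place in a study of fluid shear.

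The study asked what shear does to these cells and what Ift88, a gene of ciliary transport, contributes. Primary bone cells labelled as pre-osteoclasts received an Ift88 or a control short hairpin RNA (shRNA) and were grown with MCSF and RANKL for 2 days, per the labels. The groups were orbital shear with Ift88 shRNA, orbital shear with control shRNA and no shear with control shRNA, and the protocol gives 24 hours of shear. Each group had 1 library, so no difference has a replicate check, no p-value is given and every value describes these libraries. The control cells carry the genotype label WT. The protocol text names shear for every sample, although the static sample has the treatment label None. The sources used here give no mouse strain, sex, age, number of animals or way of delivering the hairpins. The samples hold no library of Ift88 shRNA without shear. What the knockdown does by itself and what it does under shear cannot be told apart.

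Levels are given as FPKM, a fragment count scaled by transcript length and library size, so genes can be compared with each other. Estimated depth was 35320000, 35340000 and 35000000 fragments in the Ift88 shRNA, sheared control and static libraries. Ift88 itself was at 1.197 FPKM in the Ift88 shRNA library, 2.71 in the sheared control and 2.98 in the static library, a ratio of 0.442 between the sheared libraries (95% counting interval 0.354 to 0.549). Of the osteoclast markers, the acid phosphatase gene Acp5 was at 83.0, 52.9 and 97.7 FPKM in that order, while Calcr, the calcitonin receptor of mature osteoclasts, stayed below 0.12 FPKM in each. The macrophage markers Cd68 and Csf1r were above 240 FPKM in every library.

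Many of the podosome and actin genes were among the most abundant transcripts of the cells. Of the 40 members, 21 reached 100 FPKM in each library and 7 reached 500. Of genes with a mean of at least 1 FPKM, 93.2% lay below Actn4 (102 FPKM) in the static library. There 98.7% lay below Arpc1b (555 FPKM). Other members were in the middle or low. In the sheared control the shares below them were 66.2% for Src, 53.8% for Vcl, 31.4% for Ptk2 and 14.8% for Sh3pxd2a. Over the 38 members with such a mean, the median was 121 FPKM with Ift88 shRNA, 115 in the sheared control and 113 in the static library. Over the 10358 genes with a mean of at least 1 FPKM it was 11.0, 10.9 and 11.1 FPKM. All 40 members together made up 1.98%, 1.91% and 1.91% of all FPKM. Only 38 members passed that mean of 1 FPKM, and Tln2 and Cttn did not.

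**Figure D1:**
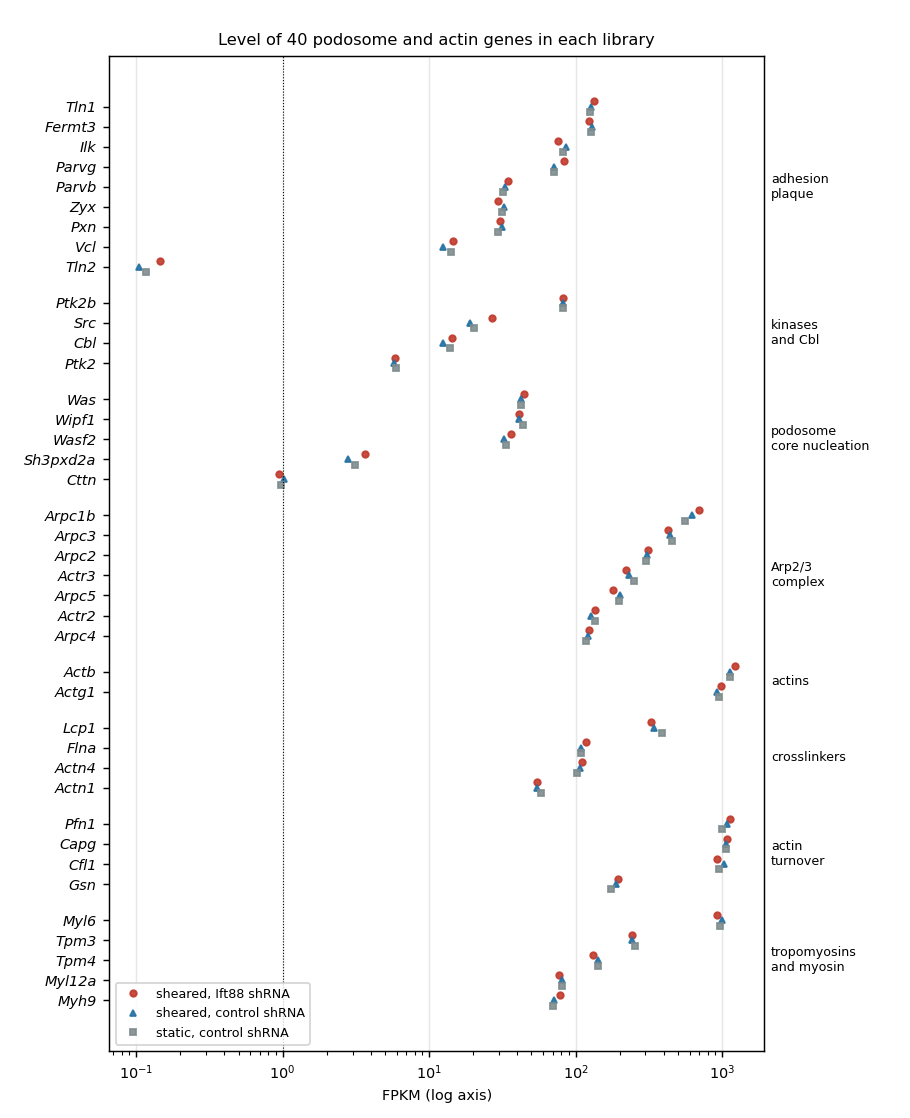
FPKM on a log axis of the 40 members in the 3 libraries, 1 symbol per library, grouped by role and ordered by mean level within each role. For most members the 3 symbols lie close together, from Actb at 1218, 1132 and 1126 FPKM down to Tln2 at 0.146, 0.105 and 0.116, and the dotted line marks 1 FPKM.

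In several families 1 gene carried most of the RNA, while in others, such as the tropomyosins, the genes lay nearer to each other. Talin-1, the integrin activator that links to actin, was at 134, 127 and 126 FPKM in the Ift88 shRNA, sheared control and static libraries. Its relative Tln2 was at 0.146, 0.105 and 0.116 FPKM. Fermt3, the kindlin of blood cells that helps talin to activate integrins, was at 124, 130 and 127 FPKM, while Fermt2, the kindlin of adherent tissues, was below 0.4 FPKM in each library. Of the parvins, which join integrin-linked kinase to actin, Parvg and Parvb were measured at 71.1 to 83.1 and at 31.9 to 34.8 FPKM, and Parva was below 0.25 FPKM.

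Among the kinases, Ptk2b, which encodes the focal adhesion kinase relative Pyk2, was at 81.8, 82.1 and 82.6 FPKM. Ptk2, focal adhesion kinase itself, was lower in every library, at 5.81, 5.78 and 5.92 FPKM. Cttn, which encodes the branch-stabilizing protein cortactin, was at 0.947, 1.02 and 0.972 FPKM, while its blood-cell homologue Hcls1 was at 113, 103 and 102 FPKM. Sh3pxd2a, which encodes the podosome scaffold Tks5, was at 3.64, 2.80 and 3.12 FPKM. The related scaffold Sh3pxd2b was far more abundant, at 37.3, 38.5 and 40.8 FPKM. Fermt2, Parva, Hcls1 and Sh3pxd2b are not members.

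The subunits of the Arp2/3 complex, which enter the complex in equal numbers, were unequal as RNA. Arpc1b was the highest, at 695, 625 and 555 FPKM in the Ift88 shRNA, sheared control and static libraries. Arpc4 was the lowest, at 124, 121 and 117 FPKM. Between them lay Arpc3, Arpc2, Actr3, Arpc5 and Actr2, in that order in every library. Arpc1a, which can take the place of Arpc1b, was at 49.4, 48.9 and 47.0 FPKM.

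The most abundant members were actins and the proteins that shape the actin pool. Actb was at 1218, 1132 and 1126 FPKM and Actg1 at 978, 926 and 951 FPKM. Pfn1, which delivers actin monomers to growing filament ends, was at 1136, 1074 and 1006 FPKM, close to the filament-capping Capg at 1087, 1064 and 1061. Next came Cfl1, the filament-severing cofilin, at 919, 1023 and 956 FPKM, and Myl6, the essential light chain of non-muscle myosin, at 927, 999 and 963. Without replicates the order of neighbours such as Capg and Pfn1 is not established, and it changed between libraries. Actb and Actg1 have nearly the same coding sequence, and Cfl1, Pfn1, Tpm3, Myl6 and Myl12a have close copies or pseudogenes elsewhere in the genome. The division of fragments between such copies is estimated, so these values are uncertain.

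**Figure D2:**
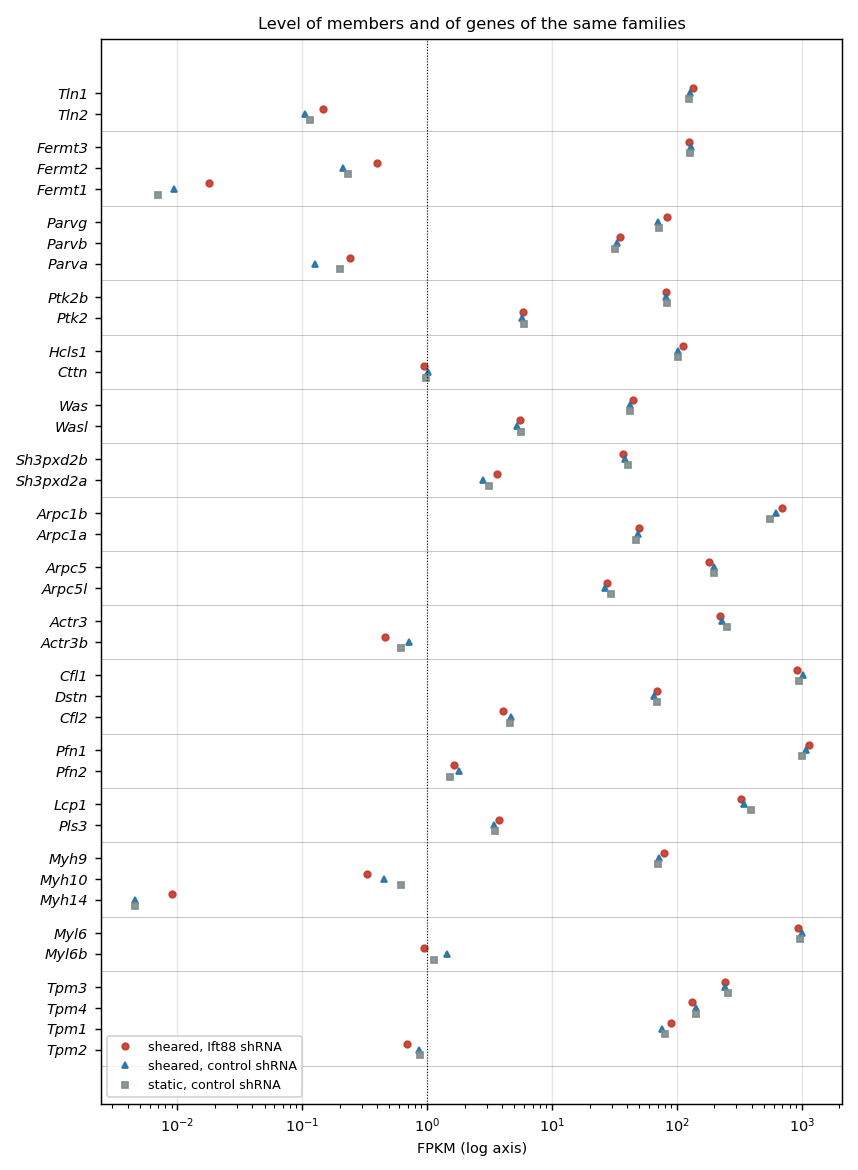
FPKM on a log axis of members and of further genes from the same families in the 3 libraries, with 1 symbol per library and families set apart by lines. Tln1 at 127 to 134 FPKM stands far above Tln2, whereas Tpm3, Tpm4 and Tpm1 lie nearer to each other, at 243, 143 and 76.3 FPKM in the sheared control.

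With Ift88 shRNA under shear, the member that differed most was Src. It was at 26.8 FPKM in the Ift88 shRNA library, against 19.1 FPKM in the sheared control. The static library, at 20.3 FPKM, lay with the sheared control. The ratio of Ift88 shRNA to sheared control was 1.402 (95% counting interval 1.33 to 1.48), a log2 ratio of 0.47 on the scale of FPKM + 1 that is used for all log2 values here. Of the 10358 genes, 99.5% had a lower log2 ratio than Src in that comparison. The estimated fragments behind them numbered 3489 and 2489. Src lies on chromosome 2, from 157423906 to 157471838 in GRCm38.

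The second member past 1.2-fold was Sh3pxd2a, whose protein is a Src substrate. It was at 3.64 FPKM with Ift88 shRNA and 2.80 FPKM in control cells under shear, a ratio of 1.30 (1.12 to 1.51) and a log2 ratio of 0.29. The gene was low, with an estimated 417 and 320 fragments when counted on its shortest transcript of 3437 bases. Its longest transcript has 10454 bases, so the fragments may be underestimated and the interval too wide. After centring for transcript length the gene was no longer past 1.2-fold. Thus 2 of 38 members (5.26%) were at least 1.2-fold higher, beside 3.25% of all genes. None of the 38 was at least 1.2-fold lower, beside 2.29% of all genes. A count of 2 is too small to set the members apart from other genes.

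At 1.1-fold, 8 members (21.1%) were higher with Ift88 shRNA, beside 13.4% of all genes, and 3 (7.89%) were lower, beside 9.92%. In all, 24 members were higher (63.2%, beside 53.6% of all genes) and 14 lower (36.8%, beside 46.4%). Their median log2 ratio was 0.032 versus 0.010 over all genes, and it was 0.016 with centring by length and GC content and 0.064 with equal library totals.

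Adhesion plaque genes were split, with 4 of 8 higher. Vcl, which encodes the load-bearing talin and actin linker vinculin, was at 14.6 FPKM with Ift88 shRNA versus 12.4 in control cells under shear, a ratio of 1.18 (1.11 to 1.245). Part of Vcl overlaps Ap3m1 (15.4 versus 17.3 FPKM), and since the handling of strand is not known, its value is uncertain. Parvg was at 83.1 versus 71.1 FPKM, a ratio of 1.17 (1.13 to 1.21). Both were higher with Ift88 shRNA, and Ilk, the integrin-linked kinase that binds parvins, was lower. Ilk was at 76.3 versus 85.6 FPKM, a ratio of 0.891 (0.854 to 0.929), and it overlaps Taf10 (75.1 versus 76.6 FPKM). Zyx, a force-sensitive plaque protein, was at 29.8 versus 32.5 FPKM.

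In the kinase group, Cbl, a ubiquitin ligase and adaptor that Src phosphorylates in osteoclasts, was at 14.3 FPKM versus 12.5, a ratio of 1.14 (1.096 to 1.18). Ptk2b and Ptk2 had ratios of 0.996 and 1.005, with intervals that include 1. The related kinase genes Lyn and Fyn had smaller ratios than Src. Lyn was at 49.6 versus 46.6 FPKM and Fyn at 13.6 versus 11.4. Csk, the kinase that holds Src family members inactive, was at 61.8 versus 58.7 FPKM. Lyn, Fyn and Csk are not members.

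Beside 53.6% of all genes, all 4 core nucleation genes that passed the filter were higher with Ift88 shRNA. Besides Sh3pxd2a they were Wasf2, an activator of Arp2/3 in lamellipodia, at 36.2 versus 32.4 FPKM, Was at 44.4 versus 42.2 and its partner Wipf1 at 41.3 versus 40.8. The intervals of Was and Wipf1 include 1.

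The Arp2/3 subunits did not move as a block, with 4 of 7 higher. Arpc1b had a ratio of 1.11 and Arpc5 a ratio of 0.901 (0.878 to 0.925). Summed over the 7 subunits, the level was 2093 FPKM with Ift88 shRNA and 2050 in control cells under shear, a ratio of 1.02.

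Both actins were slightly higher, and their sum, which does not depend on how fragments were divided between them, was 2196 FPKM versus 2058, a ratio of 1.07. Of the crosslinkers, Flna, the large actin crosslinker that binds integrins, was at 118.2 versus 109.6 FPKM, and Lcp1, the actin-bundling plastin of leukocytes, at 326 versus 343. Actn1 was at 54.9 versus 54.4 FPKM and Actn4 at 110.6 versus 107.6. Cfl1 stood apart from the other turnover genes with a ratio of 0.899 (0.889 to 0.908), where Gsn, Pfn1 and Capg had ratios of 1.02 to 1.06. In the myosin group Myh9, the non-muscle myosin heavy chain, was higher at 78.8 versus 71.4 FPKM, a ratio of 1.104. The remaining genes of that group, Tpm3, Tpm4, Myl6 and Myl12a, had ratios of 0.927 to 0.998.

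**Figure D3:**
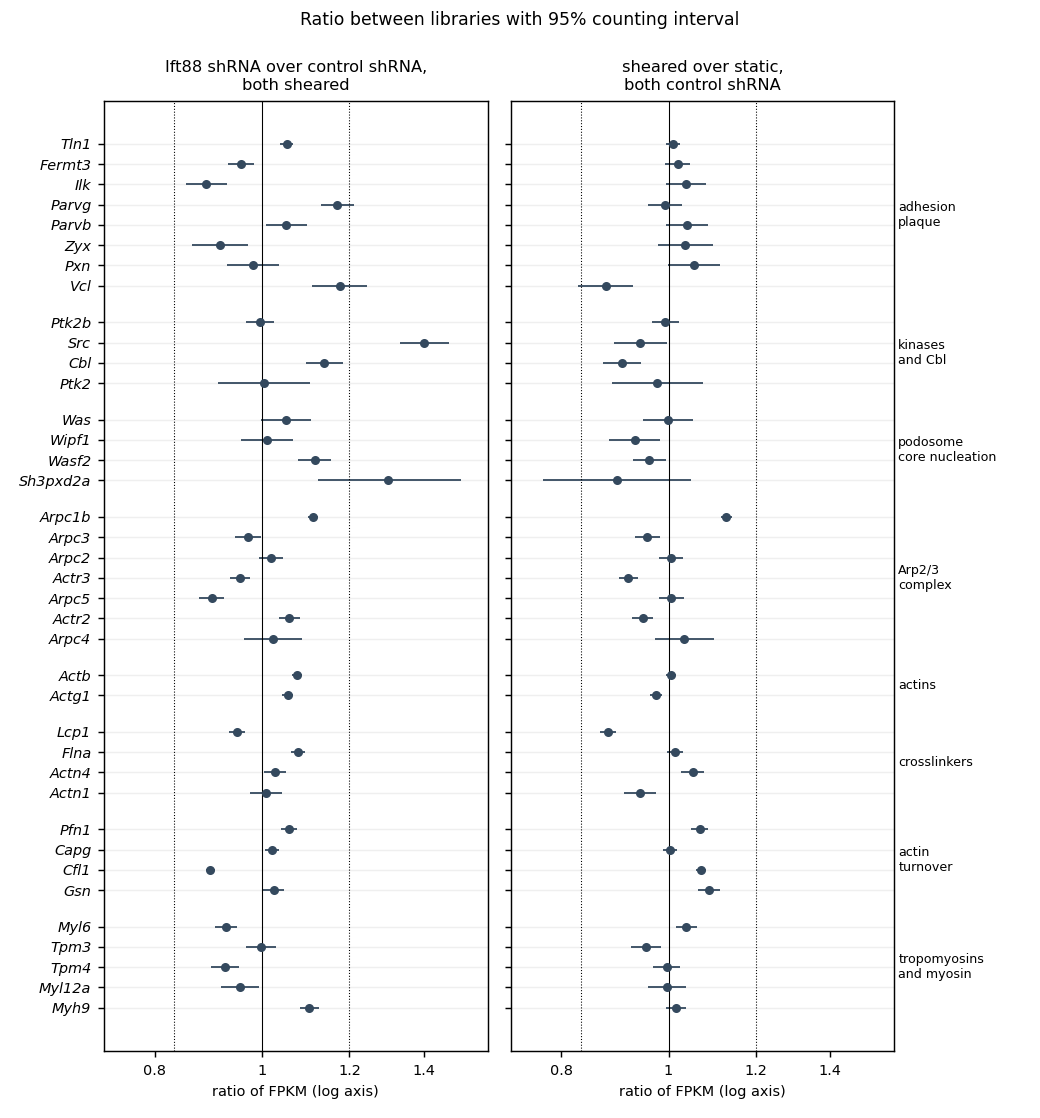
Ratio of FPKM on a log axis for the 38 members that passed the filter, for Ift88 shRNA over control shRNA under shear (left) and for sheared over static with control shRNA (right). Bars are 95% counting intervals and dotted lines mark 1.2-fold, and on the left Src at 1.402 and Sh3pxd2a at 1.30 lie beyond the line while on the right no member does.

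Promoter sequence was examined because vinculin, actin and myosin genes include well-known targets of serum response factor, which binds the CArG box and answers to the state of the actin pool. RefSeq promoter windows in GRCm38, from 250 bases before to 50 bases after the annotated start, were at hand for 33 of the 40 members. The CArG box (CC, 6 bases of A or T, then GG, a pattern that reads alike on both strands) was found in 4 of the 33 (12.1%), against 1.53% of the 8393 expressed genes with a window and 1.81% of all 27025 genes. The 4 genes were Vcl, Actg1, Myl6 and Arpc4. The AP-1 pattern TGANTCA, also alike on both strands, was in 3 of 33 (9.09%), against 5.98% of expressed genes. The GC box GGGCGG, searched on both strands, was in 28 of 33 (84.8%), against 70.3%. The windows of Src and Vcl are shown in full, because Src had the largest ratio of the members that passed the filter and Vcl is among the genes named in both comparisons and holds a CArG box, and 60 bases are shown for the others with a CArG box. Capitals mark GC boxes in Src and CArG boxes in the other genes.
Src chr2:157424043-157424342, plus strand: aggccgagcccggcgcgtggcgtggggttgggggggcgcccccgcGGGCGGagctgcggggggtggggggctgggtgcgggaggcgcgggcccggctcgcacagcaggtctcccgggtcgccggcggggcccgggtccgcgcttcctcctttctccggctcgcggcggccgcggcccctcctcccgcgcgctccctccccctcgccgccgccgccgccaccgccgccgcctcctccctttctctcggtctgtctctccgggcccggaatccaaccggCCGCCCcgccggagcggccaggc
Vcl chr14:20929148-20929447, plus strand: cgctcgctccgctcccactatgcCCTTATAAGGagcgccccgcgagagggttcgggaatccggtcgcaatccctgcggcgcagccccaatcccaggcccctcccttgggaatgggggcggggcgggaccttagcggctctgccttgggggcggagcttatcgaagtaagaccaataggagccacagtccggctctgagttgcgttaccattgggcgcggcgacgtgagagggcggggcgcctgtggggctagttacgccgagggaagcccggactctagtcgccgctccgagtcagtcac
Actg1 chr11:120348551-120348610, minus strand: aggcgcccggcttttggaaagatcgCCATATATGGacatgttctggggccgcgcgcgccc
Myl6 chr10:128493025-128493084, minus strand: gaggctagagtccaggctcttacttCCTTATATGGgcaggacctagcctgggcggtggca
Arpc4 chr6:113377863-113377922, plus strand: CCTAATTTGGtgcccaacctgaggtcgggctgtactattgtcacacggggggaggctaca

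The 4 genes with a CArG box did not share a direction with Ift88 shRNA. Vcl, Actg1 and Arpc4 had ratios of 1.18, 1.06 and 1.02, and Myl6 had 0.928. The Src window held no CArG box, which says only that the pattern is not in these 300 bases. The box began 227 bases before the start in Vcl, 90 in Actg1, 50 in Myl6 and 250 in Arpc4, where it lies at the edge of the window. The Myl6 stretch lies inside the annotated gene, which runs from 128490859 to 128493886, so its start is an internal one. The Src window likewise lies inside the annotated span of Src.

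With shear alone, set against static cells with the same control shRNA, no member was past 1.2-fold. Over all genes 1.94% were past it upwards and 2.26% downwards. The log2 ratios of the 38 members ran from -0.18 to 0.17, with 19 higher (beside 46.0% of all genes) and 19 lower (beside 53.9%). Their median was 0.0018, against -0.011 over all genes, and its sign turned with equal library totals and with centring by length, with or without GC content. At 1.1-fold 1 member was higher (2.63%, beside 10.3% of all genes) and 2 were lower (5.26%, beside 12.4%).

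The member above 1.1-fold was Arpc1b, at 625 FPKM in the sheared control against 555 in the static library, a ratio of 1.13 (1.12 to 1.14). Added to Arpc1a, its substitute, the sum was 674 versus 602 FPKM. The 2 members below were Lcp1 and Vcl. Lcp1 was at 343 FPKM with shear against 389 without, a ratio of 0.882 (0.868 to 0.896). Vcl was at 12.4 versus 14.2 FPKM, a ratio of 0.877 (0.828 to 0.929).

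Next in size were Cbl and the filament-severing and capping gene Gsn. Cbl was at 12.5 FPKM in the sheared control against 13.8 in the static library, a ratio of 0.908 (0.873 to 0.944), and Gsn was at 189 versus 174, a ratio of 1.09 (1.06 to 1.11). With centring by transcript length the log2 ratio of Cbl was -0.059 in place of -0.13. By role, all 4 turnover genes were higher with shear, beside 46.0% of all genes, with a median log2 ratio of 0.095. The interval of Capg includes 1. All 4 kinase and Cbl genes, and all 4 core nucleation genes that passed the filter, were lower, with medians of -0.055 and -0.077. Over all genes 53.9% were lower, and the intervals of Ptk2, Ptk2b, Was and Sh3pxd2a include 1. The longest transcripts of the turnover genes had 861 to 2653 bases. Those of the kinase and Cbl genes had 3903 to 11372, and of these core genes 2114 to 10454. Over all genes the median log2 ratio with shear was 0.053 under 1500 bases and -0.035 from 3000 bases on. The part of length in these directions was not tested by role. These 4 core genes were all higher with Ift88 shRNA, which cannot be told apart from a deviation of the shared sheared control library. Src was at 19.1 versus 20.3 FPKM, a ratio of 0.943 (0.892 to 0.996). Of the 8 plaque genes that passed the filter, the 6 other than Vcl and Parvg were higher by small amounts, with ratios of 1.009 to 1.054. The intervals of these 6 include 1. The actin sum was 2058 FPKM with shear and 2077 without, a ratio of 0.991.

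The sheared Ift88 shRNA library was also set against the static control, a comparison in which both hairpin and shear differ. It shares its libraries with the other comparisons and is no independent evidence. Src was at 26.8 FPKM versus 20.3, a ratio of 1.32 (1.26 to 1.39). Arpc1b was at 695 versus 555 FPKM, a ratio of 1.25 (1.24 to 1.27), with the sheared control between them at 625. These 2 of 38 members (5.26%) were at least 1.2-fold higher, beside 4.79% of all genes, and none was at least 1.2-fold lower, beside 4.48%. Below them, Lcp1 was at 326 FPKM in the Ift88 shRNA library and 389 in the static library, a ratio of 0.838 (0.824 to 0.852). Actr3 was at 221 versus 251, a ratio of 0.878 (0.861 to 0.896), and Parvg at 83.1 versus 71.6, a ratio of 1.16 (1.121 to 1.201). In all, 22 members were higher (57.9%, beside 49.8% of all genes) and 16 lower (42.1%, beside 50.1%). At 1.1-fold 7 were higher (18.4%, beside 16.9%) and 3 lower (7.89%, beside 15.7%). The median of the members was 0.037, against -0.0003 over all genes, and 0.0023 with centring by length and GC content.

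Vcl and Cbl were highest in the Ift88 shRNA library, lowest in the sheared control and between them in the static library. Of the other members that passed the filter, Src, Sh3pxd2a, Parvg, Wasf2, Was, Actr2 and Actg1 had the same order. The order is therefore not particular to Vcl and Cbl. The share of all genes with that order was not counted, so it cannot be said whether the members stand out. Vcl was at 14.6, 12.4 and 14.2 FPKM and Cbl at 14.3, 12.5 and 13.8. With centring by length the log2 ratio of Cbl was 0.11 with Ift88 shRNA, in place of 0.17. Both comparisons use the sheared control library, so the opposite directions of their ratios rest partly on 1 value and cannot be told apart from a deviation of that library.

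**Figure D4:**
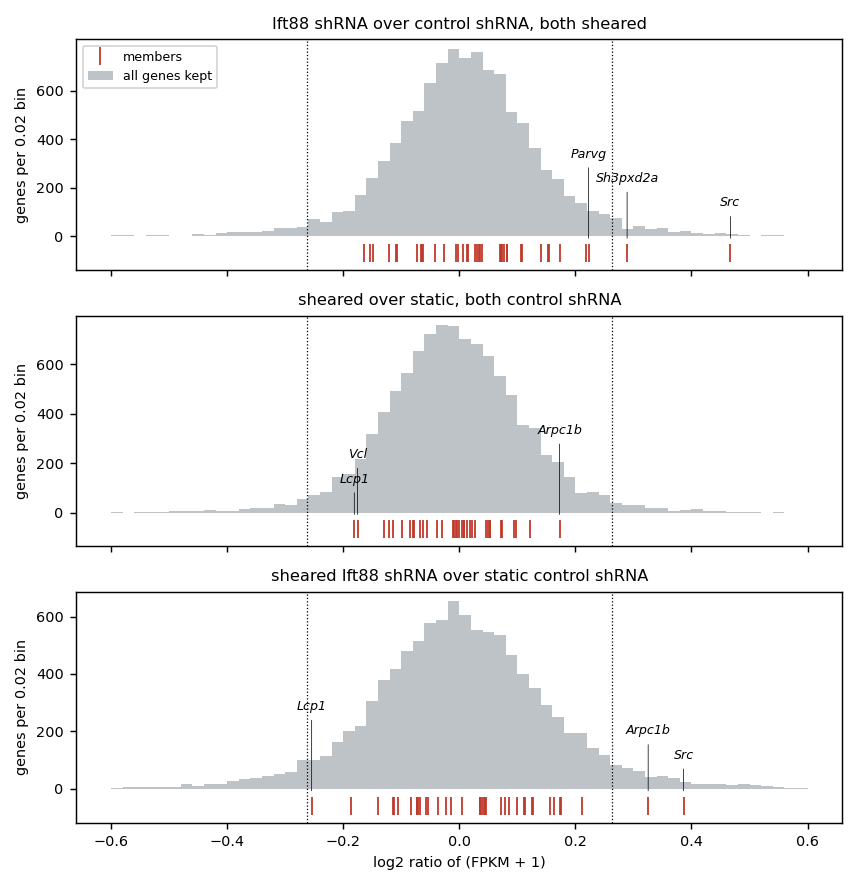
Number of genes by log2 ratio of (FPKM + 1) in bins of 0.02 for the 10358 genes kept (grey), with the 38 members as red ticks and dotted lines at 1.2-fold, in the 3 comparisons. The members spread across the middle of each distribution, Src lies at 0.47 in the first and 0.39 in the third, and the few genes beyond 0.6 on either side are not drawn.

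Transcript length and base composition moved with the ratios. Across the 38 members, the Spearman correlation of the Ift88 shRNA log2 ratio with transcript length was 0.49, and across 10268 genes with a length it was 0.16. For shear the correlation with length was -0.33 over the members and -0.28 over all genes, and with GC content it was 0.51 and 0.34. All points come from the same pair of libraries, so these are descriptions. Of the 19 members with a transcript of at least 3000 bases, 15 were higher with Ift88 shRNA, beside 53.6% of genes of any length. Their median log2 ratio was 0.073, versus 0.027 for all genes of that length. Of the 14 members from 1500 to 3000 bases, 6 were higher, with a median of -0.033, against -0.0013. The 5 members under 1500 bases did not follow that order, with 3 higher and a median of 0.027, against -0.022. Of the long transcripts, Zyx, Pxn, Ptk2b and Lcp1 were lower with Ift88 shRNA, and the 15 higher ones include Cbl, Sh3pxd2a, Tln1, Flna, Myh9, Wasf2 and Vcl. The part of length in the ratios was not tested beyond the centring, which left Src as the only member past 1.2-fold with Ift88 shRNA.

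**Figure D5:**
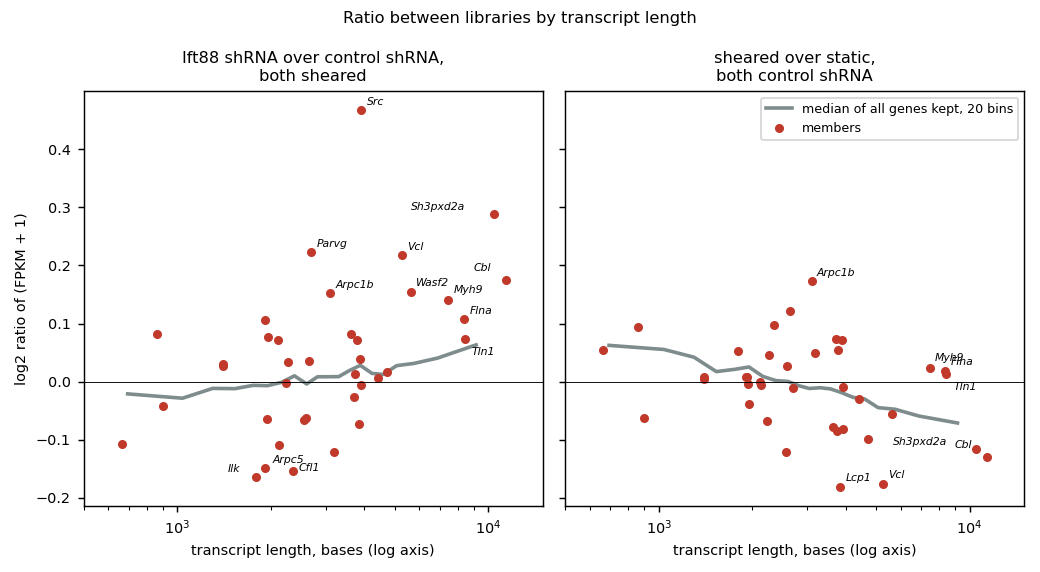
Log2 ratio of (FPKM + 1) against transcript length on a log axis for the 38 members (red) and the median of all genes in 20 length bins (grey line), for Ift88 shRNA over control under shear (left) and shear over static (right). The grey line goes up with length on the left and down on the right, and Src at 0.47 lies far above it.

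Other genes of the same machinery were read from lists. Of 37 further podosome genes that passed the filter, 28 were higher with Ift88 shRNA and 9 lower, with a median log2 ratio of 0.071 versus 0.010 over all genes. Over all genes 53.6% were higher. Past 1.2-fold, 5 of the 37 were higher (13.5%, beside 3.25% of all genes) and 2 lower (5.41%, beside 2.29%). Dock5, an activator of Rac needed for the sealing zone, was at 6.78 FPKM versus 4.73 in the sheared control, the membrane collagenase Mmp14 at 19.6 versus 14.3 and the vitronectin receptor subunit Itgav at 11.5 versus 8.37. Lims1, which encodes the Ilk partner PINCH, was lower at 19.8 versus 26.7 FPKM. With shear the list was mostly lower, with 8 of 37 higher (21.6%, beside 46.0% of all genes) and a median of -0.049, against -0.011. Past 1.2-fold there was 1 gene in each direction (2.70%, beside 1.94% of all genes higher and 2.26% lower). These were Itgb3, the partner subunit of Itgav, at 7.08 FPKM with shear against 5.36 without, and Itgav at 8.37 versus 10.3. The opposite directions of this list cannot be told apart from a deviation of the sheared control library, which both comparisons use.

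Genes of the serum response factor pathway, with targets, were higher with Ift88 shRNA in 11 of 14 cases (78.6%, beside 53.6% of all genes), with a median log2 ratio of 0.17, against 0.010 over all genes. Of the 14, 4 were at least 1.2-fold higher (28.6%, beside 3.25%). Fos was at 13.1 FPKM versus 8.09 in the sheared control, Filip1l at 4.52 versus 3.14 and Ccn1, listed as Cyr61, at 1.6004 versus 0.967. Srf itself was at 10.1 versus 9.59 FPKM and its actin-sensing cofactor Mrtfa, listed as Mkl1, at 27.4 versus 27.8. With shear 2 of the 14 were higher (14.3%, beside 46.0% of all genes), the median was -0.065 and none was past 1.2-fold. Here too the sheared control library is shared, so the opposite directions cannot be told apart from a deviation of that library. Among 9 other tropomyosin and myosin genes, 7 were higher with Ift88 shRNA (77.8%, beside 53.6%), with Cald1 at 2.09 versus 1.54 FPKM. With shear 4 of the 9 were higher (44.4%, beside 46.0%), with the actin-binding Cnn2 at 6.82 FPKM versus 8.50 in static cells.

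Markers of cell state and of other cell types moved in the same comparisons. The 12 osteoclast markers summed to 413 FPKM with Ift88 shRNA, 339 in the sheared control and 446 in the static library. Of the 8 that passed the filter, 7 (87.5%) were higher with Ift88 shRNA, beside 53.6% of all genes. With shear 7 of the 8 were lower, beside 53.9% of all genes. Both comparisons use the sheared control library, so these opposite directions cannot be told apart from a deviation of that library. The 10 stromal markers summed to 12.1, 9.91 and 12.4 FPKM, with Lum at 0 in the Ift88 shRNA and static libraries. Of the 5 stromal markers that passed, 4 were higher with Ift88 shRNA (80.0%, beside 53.6% of all genes). The 7 neutrophil markers found summed to 25.1, 20.8 and 53.0 FPKM, with Elane and Mpo at 0 in the sheared control. The 6 smooth muscle markers summed to 8.30, 7.18 and 7.85 FPKM. The 8 macrophage markers summed to 32979, 31740 and 33377 FPKM and the 6 megakaryocyte and endothelial markers to 321, 314 and 312. The lymphoid markers Cd3e, Cd3g and Ms4a1 were at 0 in every library. In bulk RNA, fewer cells of a type and less RNA per cell cannot be told apart, and the part of these markers in the ratios of the podosome genes was not tested.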

How the data were processed

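RNA was sequenced in 3 libraries, 1 per group, made with the Illumina TruSeq mRNA kit per the labels' protocols. The tools, per the submitters' processing notes, were Cufflinks 2.2.1, TopHat2 2.0.13, Trimmomatic 0.32 and bcl2fastq 1.8.4, with the build mm10. The sources used here give neither settings nor the handling of strand. The deposited FPKM table of the authors was used as it stands, so a value is a share of its library. Cufflinks estimates how fragments divide between similar genes.

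Log2 ratios were taken of FPKM + 1, which understates differences of low genes, over the 10358 genes with a mean of at least 1 FPKM. A gene was called past 1.2-fold. The steps between low FPKM values of 13077 genes with a single transcript gave an estimate of depth. At that depth 63.8% to 64.0% of low values were whole fragments within 0.1, so no count model was used. The 95% Clopper-Pearson intervals of FPKM ratios come from these estimates, treat fragments as independent, and cover counting error only. Fragments of a gene were estimated on its shortest transcript. Whether the depth and intervals hold for the FPKM values themselves, or for genes with several transcripts, was not tested. Lengths and GC content came from GENCODE M21 transcripts of GRCm38, matched by RefSeq accession for 99.1% of genes kept. Coordinates, and older symbols in the lists, came from the RefSeq table of GRCm38, and 1 listed symbol had no match.

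All 40 members were described. Those past 1.2-fold, or the 5 with the largest log2 ratio, were given in full, and from each list up to 3 genes past 1.2-fold could be named. Family relatives, cell type markers, Lims1 and list genes not past 1.2-fold were named after their values were seen. A few listed genes are not reported here. The members and lists were chosen with earlier results of these data known. Python 3.11.15, NumPy 2.4.6, pandas 2.3.3, SciPy 1.17.1 and Matplotlib 3.10.9 were used.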

Additional observations from a re-analysis of the deposited data

How the results depend on the processing

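With 1 library per group, culture variation is unmeasured, and no library could be left out. No paired analysis was possible because each group had 1 library. Alternatives changed the pseudocount, filter, scaling, length and GC centring, or threshold. With Ift88 shRNA under shear, the count at least 1.2-fold higher was 2, and it was 1 with a pseudocount of 5, with a mean of at least 10 FPKM, with centring by length, and with centring by length and GC content. In each of these 4 cases Src was the 1 left. It was 8 at 1.1-fold, with 3 lower, and 0 at 1.5-fold. For shear, 1 was higher and 2 lower at 1.1-fold. The shear median of 0.0018 became -0.016 with equal library totals, -0.011 with length centring and -0.015 with length and GC centring, where the cause was not tested. For sheared Ift88 shRNA against static control, 1 was lower with length centring (Lcp1), 7 were higher and 3 lower at 1.1-fold, and 0 were higher at 1.5-fold. The log2 ratio of Src ran from 0.40 to 0.50 with Ift88 shRNA and that of Sh3pxd2a from 0.15 to 0.37. None of 119 recomputed values of named members changed sign, and 10 moved by more than the margin of their counting interval. These members were named for their large ratios, so a change of sign was unlikely from the outset.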

Other observations

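Of 22 further genes of actin nucleation, among them the WAVE complex, formins and relatives of Was and of Arp2/3 subunits, none was past 1.2-fold in any of the 3 comparisons. Over all genes 3.25% were at least 1.2-fold higher and 2.29% lower with Ift88 shRNA under shear, and 1.94% and 2.26% with shear. For sheared Ift88 shRNA cells set against static control cells the shares were 4.79% and 4.48%.

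Of 25 other turnover and capping genes, 12 were higher with Ift88 shRNA (48.0%, beside 53.6% of all genes). Ssh3, which encodes a phosphatase that activates cofilin, was at 23.7 FPKM versus 31.4 in the sheared control, and the static library was at 32.6. The actin monomer binding gene Tmsb10 was at 370 FPKM in the sheared control against 295 in the static library, while its relative Tmsb4x was at 2968 versus 3395.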
